A study of Mus musculus with 2 samples.

Results

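The Hes, Hey and Id genes are a set of 10 genes for transcriptional repressors and inhibitors of the basic helix-loop-helix (bHLH) class, and their RNA levels were measured in the embryonic mouse midbrain. The members were taken by gene symbol, which matched 10 of the 55536 annotated genes: Hes1, Hes3, Hes5, Hes6, Hey1, Hey2, Id1, Id2, Id3 and Id4. Polyadenylated RNA of strain B6NCrl, at 12.5 days of gestation, was sequenced in 2 libraries, replicate 1 from 120 pooled embryos and replicate 2 from 88. The labels name no mutant allele and no treatment; male and female embryos were mixed, and each library started from 10 ng of RNA with ERCC control RNAs added. They form 1 group, so the comparisons are between genes, between the pools, and between the gene annotations used for counting. Each pool is a whole dissected region, in which fewer cells of a type and less RNA per cell cannot be told apart.

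Hes and Hey proteins bind DNA and repress transcription, the Hes proteins with corepressors of the Groucho family that hold on to a short tail of tryptophan, arginine, proline and tryptophan. Hey proteins have a diverged version of that tail and are known to repress mainly through other corepressors. Notch signalling between neighbouring cells switches most of them on, and they keep neural progenitors dividing by holding down proneural genes. Id proteins have the helix-loop-helix but no DNA-binding basic region, so they tie up the E proteins that proneural factors need as partners, and Bmp signalling is a well-known inducer of them. Hes6 is an exception within its family, since it is known to favour neuronal differentiation and to interfere with Hes1.

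The ends of the coding sequences are shown because the Hes tail, its diverged Hey version and the lack of either in Id genes can be read there. The last 15 codons before the stop codon are given for the main transcript of each Hes and Hey gene, from the GENCODE M21 transcript sequences (GRCm38). Capitals mark, in frame, a tryptophan or tyrosine codon followed by any codon, a proline codon and a tryptophan codon.
Hes5: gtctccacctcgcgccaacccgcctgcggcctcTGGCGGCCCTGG
Hes6: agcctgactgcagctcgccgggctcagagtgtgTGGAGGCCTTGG
Hes3: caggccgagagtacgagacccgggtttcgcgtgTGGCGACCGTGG
Hes1: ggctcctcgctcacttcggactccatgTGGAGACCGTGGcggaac
Hey1: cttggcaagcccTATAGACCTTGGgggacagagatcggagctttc
Hey2: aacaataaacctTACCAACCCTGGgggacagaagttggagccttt
In Hes3, Hes5 and Hes6 these codons were the last before the stop, and in Hes1 2 codons followed them. In Hey1 and Hey2 the first codon was one for tyrosine and 7 codons followed. No such run of codons was found in frame in Id1, Id2, Id3 or Id4, whose coding sequences had 148, 134, 119 and 161 codons. Hes5 had 167 and Hey2, the longest of the 10, 339.

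The RefSeq promoter table (GRCm38.p6) held a window for 6 of the 10 members: Hes5, Hes6, Hey2, Id2, Id3 and Id4. Each window runs from 250 bases before a transcription start to 50 after it. It was searched on both strands for TGGGAA, the core of the site of the Notch effector Rbpj, for GGCGCC, a Smad site, and for the repressor boxes CACGNG and CACNAG. The promoters of Hes5 and Hey2 are shown because both are known Notch targets at opposite ends of the range of levels, that of Id4 because its level depended on the annotation, and those of Hes6, further down, because no reads were assigned to one of its annotated starts. Capitals mark every match, and positions are counted from the start, the base before it being -1.
Hes5 promoter, chr4:154960673-154960922, plus strand: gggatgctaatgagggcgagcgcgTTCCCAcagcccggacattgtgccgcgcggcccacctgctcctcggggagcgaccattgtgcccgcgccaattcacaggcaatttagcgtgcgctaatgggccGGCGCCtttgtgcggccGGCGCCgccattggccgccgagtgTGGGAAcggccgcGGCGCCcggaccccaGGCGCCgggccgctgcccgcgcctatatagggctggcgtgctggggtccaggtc
Hey2 promoter, chr10:30842802-30843033, minus strand: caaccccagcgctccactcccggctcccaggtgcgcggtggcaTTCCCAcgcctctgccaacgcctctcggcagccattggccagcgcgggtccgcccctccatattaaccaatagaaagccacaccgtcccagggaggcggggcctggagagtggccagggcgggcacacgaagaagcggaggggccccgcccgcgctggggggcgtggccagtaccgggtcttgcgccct
Id4 promoter, chr13:48260866-48261115, plus strand: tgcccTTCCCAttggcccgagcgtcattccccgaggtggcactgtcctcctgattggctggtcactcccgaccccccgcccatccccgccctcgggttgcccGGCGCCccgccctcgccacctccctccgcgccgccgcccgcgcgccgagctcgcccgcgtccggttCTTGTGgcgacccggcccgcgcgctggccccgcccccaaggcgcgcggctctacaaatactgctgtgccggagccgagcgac
The Hes5 window held the Rbpj core in both orientations, starting at -226 and -82, and GGCGCC at -123, -106, -69 and -54. Hey2 also held the Rbpj core in both orientations, at -207 and -3, and GGCGCC at 40, the last 2 lying past the end of the stretch shown. The Hey2 start used here lies 18 bases inside the main transcript Hey2-201, so the match at -3 falls within that transcript. In Id4 the core began at -245, GGCGCC at -148 and a match to CACNAG at -82, counted from a start 112 bases before that of its GENCODE M21 transcript. Over all 32851 windows, 25.6% held TGGGAA at least once and 1.81% held it in both orientations, 11.9% held GGCGCC, 27.5% CACGNG and 42.5% CACNAG, the last 2 of which can overlap. The Id2 window, not shown, held GGCGCC at -231 and a CACNAG match at 17. No motif was found in the Id3 window, chr4:136143572-136143871. That window lies past the start of the main transcript Id3-201, at base 136143497, and the bases before that start were not searched. The matches are descriptions of these letters only.

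All 10 members were detected, taken as at least 1 TPM (a level per transcript length, with libraries brought to a common sum) in both libraries. That limit was passed by 28.1% of all annotated genes and by 59.4% of the 22028 protein-coding genes. The libraries held 29056772 and 37122519 gene counts. All 6 midbrain markers (Otx2, En1, En2, Pax7, Pax3 and Gata3) were above the limit in both libraries, with summed levels of 260.0 TPM in replicate 1 and 264 in replicate 2. Otx2 alone made up 145 and 141 TPM of these sums. The limit was also passed by 5 of 6 forebrain markers, so passing it does not set these regions apart. Member levels covered a wide range, lowest for Hey2 and highest for Hes5.

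Hes5, a Notch target of dividing progenitors, was the highest member, at 611 TPM in replicate 1 and 682 in replicate 2 (ENSMUSG00000048001.7, chromosome 4, 154960923 to 154962371, plus strand). Its mean of 647 ± 50.6 TPM (SD, n = 2) ranked 122 among protein-coding genes. Hes6, the member that favours differentiation, followed at 330.1 and 357 TPM, a mean of 344 ± 19.0 (chromosome 1, 91411483 to 91414038, minus strand). Hes5 stood 1.85-fold above Hes6 in replicate 1 and 1.91-fold in replicate 2, so the ratio between them varied less than either level. Together these genes took 93.7% and 93.5% of the summed TPM of the 6 Hes and Hey genes.

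The other Hes and Hey genes were far lower. Hes1, the best known Notch effector of the family, had 29.0 and 23.9 TPM (26.4 ± 3.56; chromosome 16, 30064384 to 30067796, plus strand). Hey1, a repressor made in progenitors and in vessels, had 28.8 and 40.8 TPM (34.8 ± 8.49; chromosome 3, 8663359 to 8667256, minus strand). Hey1 and Hes1 were level in replicate 1 (a ratio of 0.994) and apart in replicate 2 (1.70), and their ranges overlapped. Hes3, which acts with Hes1 at the border of midbrain and hindbrain, had 3.04 and 4.06 TPM (3.55 ± 0.721; chromosome 4, 152285972 to 152291662, minus strand). Hey2, best known from heart and arteries, had 2.81 and 3.58 (3.19 ± 0.544; chromosome 10, 30832359 to 30842801, minus strand). Hes3 and Hey2 also overlapped, on 94 and 151 counts for Hes3 and 127 and 206 for Hey2. Hes5 exceeded Hes1 by 21.1-fold and 28.5-fold in the libraries.

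Id genes lay closer together, and none of them was low. Id3, an inhibitor made in progenitors and in many other tissues, had 271 and 306 TPM, a mean of 288 ± 24.8 (chromosome 4, 136143497 to 136145755, plus strand). Id2, which is also made by some young neurons, had 210.5 and 195 TPM, a mean of 203 ± 11.1 (chromosome 12, 25093799 to 25097140, minus strand). Id4, a gene of neural progenitors, had 91.0 and 91.9 TPM (91.4 ± 0.601; chromosome 13, 48261228 to 48266026, plus strand). Id1, a Bmp-responsive gene that vessels also make, was lowest at 49.7 and 54.6 TPM (52.1 ± 3.42; chromosome 2, 152736251 to 152737410, plus strand). Id2 and Id3 took 77.4% of the summed Id level in each library under annotation M21. The share is lower under the older annotation M4, where Id4 stood higher, as given below. Id3 exceeded Id2 by 1.29-fold in replicate 1 and 1.57-fold in replicate 2.

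In order of mean level the members ran Hes5, Hes6, Id3, Id2, Id4, Id1, Hey1, Hes1, Hes3 and Hey2. Of the 9 neighbouring pairs in that order, 7 had libraries that did not overlap, and the exceptions were Hey1 with Hes1 and Hes3 with Hey2. The median of the Id genes was above that of the Hes and Hey genes, at 147 against 30.6 TPM. On the scale of log2(TPM + 0.1) the libraries differed little in this gap, with 2.26 for replicate 1 and 2.09 for replicate 2 (mean 2.18 ± 0.12, SD, n = 2). The summed level went the other way: 1005 and 1112 TPM for Hes and Hey genes against 622 and 647 for Id genes, since Hes5 and Hes6 outweighed the rest. Genes are not replicates, and no p-value is attached.

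**Figure D1:**
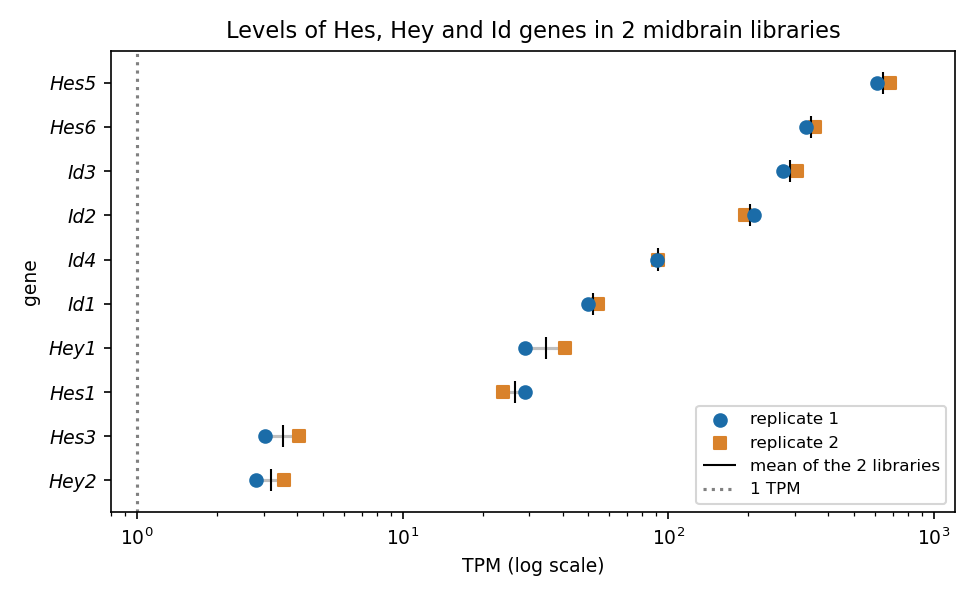
TPM of each member on a log axis, with a circle for replicate 1, a square for replicate 2 and a short line at their mean; the dotted line marks 1 TPM. The levels run from 3.19 for Hey2 to 647 for Hes5, and only Hey1 with Hes1 and Hes3 with Hey2 overlap among neighbours.

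The 3 protein-coding genes closest to Hes5 over the 2 libraries, by Euclidean distance of log2(TPM + 0.1), were H2afv, Rps3a1 and Nrep. H2afv, a histone variant gene, had 635 and 661 TPM, at a distance of 0.072. Rps3a1, a ribosomal protein gene, had 620 and 650.3, and Nrep, a gene of developing neurons, 640 and 666. With 2 libraries this likeness reflects the level and 1 ratio only.

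The deposited gene tables also give an interval around each TPM, whose level is not given in the sources used here. For Hes5 it ran from 576 to 602 TPM in replicate 1, below the deposited value of 611. The deposited TPM lay above its own interval for 5 of the 10 members in both libraries, and these were the highest 5: Hes5, Hes6, Id3, Id2 and Id4. Among 13083 coding genes at 1 TPM or more in both libraries, the share was 6.33% in replicate 1 and 5.06% in replicate 2. Those genes had a median level of 22.2 TPM and were not matched in level to the 5 members. The cause was not tested.

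The pools were compared through counts scaled by TMM (trimmed mean of M-values), with an exact binomial interval of 95% that covers counting error only. None of the 10 members differed 2-fold between the libraries, where 4.23% of 19885 compared genes did. Low-count genes add to that share, which was 1.37% with a minimum of 50 counts in a library. Among coding genes at 1 TPM or more in both libraries, 83 of 13080 differed 2-fold. Intervals of all 10 lay within 2-fold on both sides. At any fold, 7 members lay beyond counting error, against 32.3% of genes. Replicate 1 was higher for 2 of them, with 15.5% of genes so, and replicate 2 for 5, with 16.7%. Of the 13080 coding genes above, 2475 were higher in replicate 1 and 2568 in replicate 2. Members with many counts have narrow intervals, and each pool is a single library, so no p-value is given.

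Hey1 moved most. It had 1198 counts in replicate 1 and 2086 in replicate 2, a log2 ratio of replicate 1 over replicate 2 of -0.44 (95% interval -0.54 to -0.33), or 1.35-fold higher in replicate 2. Hes1 went the other way, with 711 and 723 counts at the greater depth of replicate 2, a log2 ratio of 0.34 (0.19 to 0.49). Hes1 and Hey1, whose levels overlapped, were thus the members furthest apart in ratio. Hey2, with few counts, was at -0.33 (-0.66 to -0.01), and Hes3 at -0.32, with an interval of -0.71 to 0.06 that includes equality.

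Abundant members differed little. Hes5 had 12204 and 17267 counts, a log2 ratio of -0.14 (-0.17 to -0.10), and Id3 5776 and 8194 counts, also -0.14 (-0.19 to -0.09). Hes6, at 7856 and 10715 counts, stood at -0.08 (-0.13 to -0.04). Id2 was the other member higher in replicate 1, with 4555 and 5316 counts and a log2 ratio of 0.14 (0.08 to 0.20). For Id1 (-0.11, interval -0.24 to 0.03) and Id4 (0.01, interval -0.03 to 0.06) the intervals included equality. When counts were scaled to the ERCC control RNAs instead, the median ratio of all genes moved to -0.28. Under that scaling Id2 changed sign, to -0.13, Hes1 fell within counting error at 0.07, and Id1, Id4 and Hes3 were higher in replicate 2 beyond it. That made 9 members higher in replicate 2 and none in replicate 1, while over all genes the split moved from 3085 higher in replicate 1 and 3330 in replicate 2 to 425 and 12065.

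**Figure D2:**
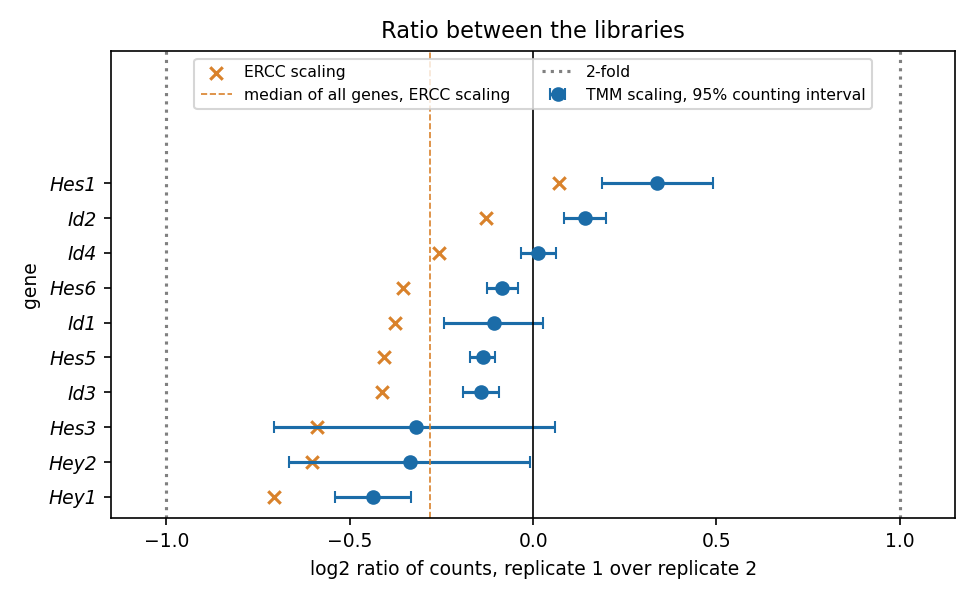
Log2 ratio of counts, replicate 1 over replicate 2, for each member: circles with bars are TMM-scaled values with 95% counting intervals, crosses are ERCC-scaled values, the dashed line is the median of all genes under ERCC scaling and dotted lines mark 2-fold. All members stay inside 2-fold, from -0.44 for Hey1 to 0.34 for Hes1.

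Markers of cells and regions that can make these genes also moved between the pools. The counts of markers beyond counting error hold for TMM scaling only. Over all genes, 15.5% were higher in replicate 1 and 16.7% in replicate 2 under that scaling. Scaling to ERCC totals lowers every log2 ratio by 0.27. Floor plate markers, 4 of 6 of them higher in replicate 2 beyond counting error, summed to 40.1 TPM in replicate 1 and 72.5 in replicate 2. Endothelial markers (6 of 7 higher in replicate 2) summed to 94.9 and 106, pericyte and smooth muscle markers (3 of 7) to 97.6 and 122, and mesenchymal markers (7 of 8) to 1017 and 1443. Of the 6 midbrain markers, 2 were higher in replicate 1 (Otx2 at a log2 ratio of 0.07 and Gata3 at 0.12) and 4 in replicate 2. The latter were En1 and En2, both at -0.50, Pax7 at -0.26 and Pax3 at -0.21. Forebrain markers, 5 of 6 higher in replicate 1, summed to 50.9 and 37.6. Neural progenitor markers were more even, at 2119 and 2077, with 4 of 7 higher in replicate 1 and 2 in replicate 2. Postmitotic neuron markers, 6 of 7 higher in replicate 1 and none in replicate 2, summed to 1900 and 1799. Roof plate and choroid plexus markers summed to 153 and 130.0 TPM, with 3 of 6 higher in replicate 1 and 2 in replicate 2. Among them Rspo3 (log2 ratio 1.95) and Ttr (1.51) differed 2-fold toward replicate 1, while Msx1 (-0.21) and Lmx1a (-0.34) were higher in replicate 2. Erythroid markers (4 of 6 higher in replicate 2) summed to 9756 and 11247, and microglial markers (1 of 6) to 59.2 and 67.9. No marker was at 0 in either library. Their part in the ratios of Hey1, Hey2, Hes1 and the other members was not tested.

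Annotated transcripts of the members numbered 28, of which 14 code for protein. A protein-coding transcript led in all 10 genes, with at least 75% of the gene's TPM in both libraries. The leading share was 88.7% and 89.1% for Hes5-201, 95.4% and 95.2% for Id1-201, and 95.2% and 94.8% for Id2-201. Id4 has 1 annotated transcript. The low genes were less even: Hes3-201 took 91.7% in replicate 1 and 82.6% in replicate 2, and Hey2-201 90.1% and 97.8%. Their second transcripts rested on 4 and 14 counts for Hes3-202 and on 11 and 4 for Hey2-202.

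Hes6 had the largest share of transcripts that do not code for protein, 23.0% and 24.0% of its TPM. Most of it was Hes6-202, a retained-intron transcript at 63.6 and 69.5 TPM, on 1751 and 2414 counts. Hes5-202, a processed transcript of 350 bases, took 11.3% and 10.9% of Hes5 by TPM on 322 and 440 counts. It is much shorter than Hes5-201 (1273 bases), so that its share by TPM exceeds its share of reads. Id3-203, which retains an intron, took 5.31% and 6.88%. Non-coding transcripts of Hey1 together went from 6.13% to 10.0% and those of Hes1 from 5.46% to 9.75%, with no more than 40 counts for any of these transcripts in a library.

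**Figure D3:**
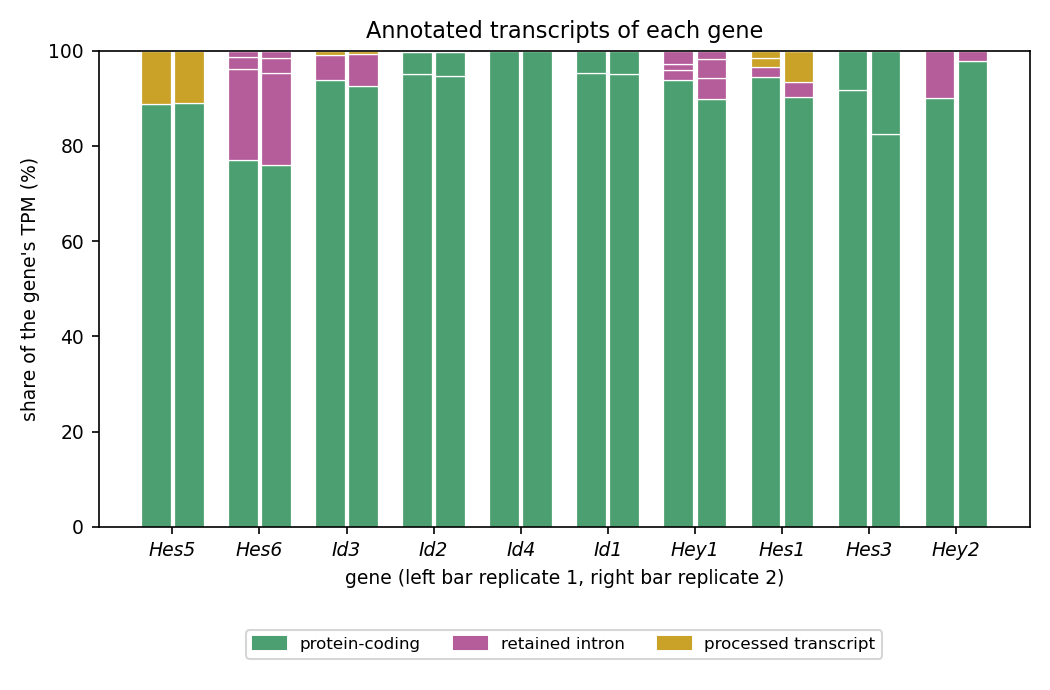
Share of each gene's TPM, in percent, taken by each annotated transcript, with the left bar for replicate 1 and the right bar for replicate 2 and colours for the transcript type. Protein-coding transcripts fill most of every bar, and retained-intron transcripts are most visible in Hes6.

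Hes6 reads were assigned to transcripts from its downstream start. Hes6-204, the only transcript that begins at base 91414038 of chromosome 1, was listed at 0 TPM in both libraries. Hes6-201, beginning at base 91413222 on the minus strand, had 254 and 271 TPM. The bases before both starts are shown for comparison, with capitals as above.
Hes6 downstream start, chr1:91413223-91413472, minus strand: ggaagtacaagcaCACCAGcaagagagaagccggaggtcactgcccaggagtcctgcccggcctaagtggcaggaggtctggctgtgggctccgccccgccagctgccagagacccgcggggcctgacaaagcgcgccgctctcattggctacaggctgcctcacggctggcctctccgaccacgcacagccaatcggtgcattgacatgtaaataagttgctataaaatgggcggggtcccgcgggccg
Hes6 upstream start, chr1:91414039-91414288, minus strand: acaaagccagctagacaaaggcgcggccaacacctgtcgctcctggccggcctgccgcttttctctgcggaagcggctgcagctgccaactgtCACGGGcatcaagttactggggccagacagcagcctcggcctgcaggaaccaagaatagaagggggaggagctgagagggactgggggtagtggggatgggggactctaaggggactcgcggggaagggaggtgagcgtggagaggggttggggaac
The downstream window held a CACNAG match at -237 and another at 16, past the end of the stretch shown. The upstream window held a CACGNG match at -157. Neither window held the Rbpj core or GGCGCC.

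The strand setting of the counting is not given in the sources used here, so reads of a member and of a gene that overlaps it on the opposite strand cannot be told apart. Hes5 overlaps Gm20421, a non-coding gene on the minus strand, over 756 bases. Gm20421 was listed at 43.6 and 43.0 TPM, on 466 and 581 estimated counts against 12204 and 17267 for Hes5. Id4 overlaps Gm49291, at 2.77 and 1.67 TPM, and A330033J07Rik, at 0.11 and 0.32. Hes5 and Id4 were the members with fractional count estimates, and the other 8 had whole counts in both libraries.

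Counting against the older annotation M4 changed the level of Id4 most. Id4 stood at 161 and 164 TPM under M4, a mean of 162 ± 1.92 against 91.4 ± 0.601 under M21, a ratio of 1.78. Its counts moved the other way, from 6372 and 8120 under M21 to 4451 and 5723 under M4. The annotated transcript has 3849 bases in M21 and 1660 in M4. Only 0.978% of 12988 detected coding genes rose by 1.5-fold or more under M4, and their median ratio was 1.05. For 6 of the other members (Hes1, Hes5, Hes6, Hey1, Id1 and Id3) the ratio was 1.05, and it was 1.01 for Id2, 0.994 for Hey2 and 0.942 for Hes3. The order of the 10 members was the same, but the step from Id2 down to Id4 narrowed from 2.22-fold to 1.27-fold.

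**Figure D4:**
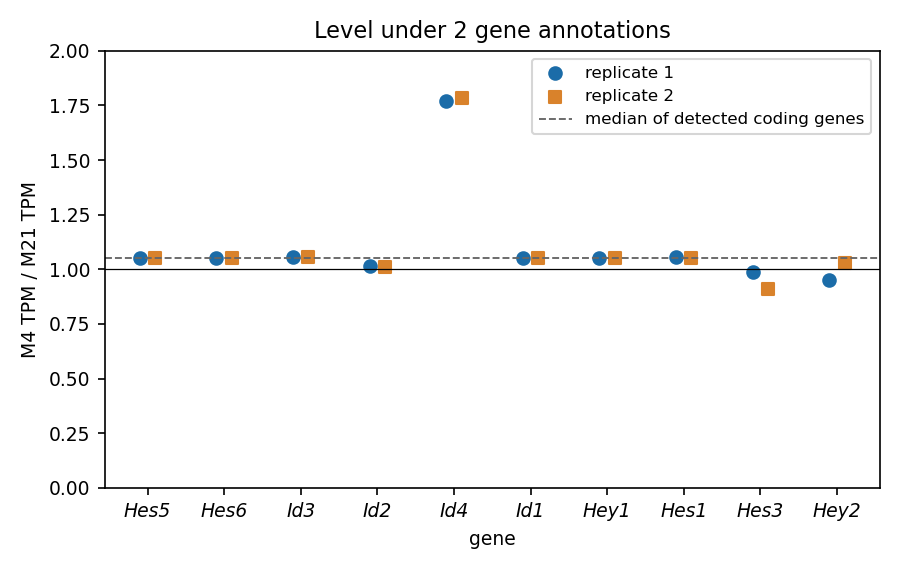
Ratio of the TPM under annotation M4 to the TPM under M21 for each member, with circles for replicate 1, squares for replicate 2 and a dashed line at the median of detected coding genes. Id4 stands at 1.77 and 1.78 while the other 9 members lie near 1.05 or below.

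Other genes of the same pathways were compared through 6 lists, which were chosen with earlier results of these data known. Of their 71 genes, 63 were detected, and 19 of 70 compared were higher in replicate 1 and 9 in replicate 2 beyond counting error, where 15.5% and 16.7% of all genes were. That split depended on the scaling: with ERCC totals, an alternative chosen after seeing the data, 4 were higher in replicate 1 and 53 in replicate 2. The 4 were all proneural or neuronal bHLH genes, so the counts given for each list hold for TMM scaling only. The median log2 ratio was 0.03 over these lists, -0.12 over the 10 members and -0.01 over all compared genes.

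Among the closest relatives 4 of 6 passed 1 TPM, and the median level of the list was 1.80 TPM. Helt, a Hey-like repressor made in the midbrain GABAergic lineage, was highest at 29.5 and 45.5 TPM, above Hes1 in both libraries. Its log2 ratio of -0.39 (-0.54 to -0.24) made it the relative beyond counting error. Hes7, the oscillating gene of the somites, was lowest at 0.16 and 0.30 TPM, and Hes2 had 0.46 and 0.37, both short of 1 TPM.

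All 21 Notch genes passed 1 TPM in both libraries, and their median level was 33.8 TPM. The Fringe gene Mfng, whose enzyme modifies Notch receptors, was highest at 98.9 ± 7.68, and the endothelial ligand Dll4 lowest at 3.85 and 3.48 in the libraries. Ligands Dll1 and Dll3 stood at 65.0 ± 0.728 and 69.0 ± 3.81, receptor Notch1 at 42.5 ± 2.24, and Rbpj, the DNA-binding partner of activated Notch, at 52.5 ± 1.61. Nrarp, another Notch target and feedback inhibitor, was at 70.9 ± 0.813 TPM, with a log2 ratio of 0.00 and an interval of -0.06 to 0.07. In this list 6 genes were higher in replicate 1, 1 (Jag1, a ligand) in replicate 2, and none differed 2-fold.

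All 6 Groucho corepressor genes passed that limit, and their median level was 40.1 TPM. Aes, which encodes a short Groucho-related protein, was highest at 409 ± 2.96, and Tle6 lowest at 2.18 and 4.01. Tle1, Tle3 and Tle4, which encode full-length Groucho proteins, had 51.1 ± 0.120, 53.3 ± 2.28 and 29.2 ± 2.37 TPM. Summed Hes and Hey TPM was 1.80 times the summed Groucho TPM in replicate 1 and 1.99 times in replicate 2. Aes alone gave 406 and 411 of the 559 TPM in that Groucho sum, so both ratios rest mostly on Aes.

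E proteins, the partners that Id proteins bind, were among the higher genes. Tcf12 had 147 and 178 TPM, Tcf3 146 and 145, and Tcf4, the lowest, 105 and 106. The summed level of the 4 Id genes was 1.56 times that of the 3 E proteins in replicate 1 and 1.51 times in replicate 2 (mean 1.54 ± 0.0392, SD, n = 2). RNA levels do not give protein levels, and under M4 the Id4 term of that sum was larger, as given above.

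Proneural and neuronal bHLH factors, which Hes proteins repress and Id proteins hold in check, passed it in 10 of 14 cases, the list's median level being 9.49 TPM. Nhlh2, a gene of young neurons, was highest at 101 and 99.8 TPM. Neurog3 was lowest at 0.35 and 0.04, and Neurod2 (1.74 and 0.98), Atoh1 (0.69 and 2.06) and Ptf1a (0.34 and 1.38) were under 1 TPM in a library. In this list 7 genes were higher in replicate 1 and 3 in replicate 2. Atoh1 and Ptf1a, genes of the dorsal hindbrain, and Neurod6, a cortical gene, differed 2-fold, with log2 ratios of -1.55, -1.99 and 1.07. With ERCC totals 2 genes of the list did. Neurog2, a proneural gene of neuron-producing progenitors, had 119 and 65.1 TPM, a log2 ratio of 0.89 (0.83 to 0.96), and made up most of the drop in the list's sum from 445 to 381 TPM. The Id sum exceeded that sum by 1.40-fold in replicate 1 and 1.70-fold in replicate 2.

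Bmp ligands, receptors and Smads, the signalling route to Id genes, passed it in 19 of 21 cases, the list's median level being 5.38 TPM. The type II receptor Acvr2b was highest at 86.7 ± 2.23, and the effectors Smad1 and Smad5 had 52.2 ± 2.50 and 30.0 ± 0.0636. Ligands were low, with Bmp7 at 13.3 ± 0.636 and Bmp4 at 8.38 ± 1.87 TPM. Gdf7 (0.735 ± 0.219), a roof plate ligand, and Smad9 (0.18 and 0.26 in the libraries), the lowest of the list, were under 1 TPM. Beyond counting error 3 genes were higher in replicate 1 and 2 in replicate 2, the latter being the receptors Bmpr1b (-0.44) and Acvr1 (-0.34), and none differed 2-fold.

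**Figure D5:**
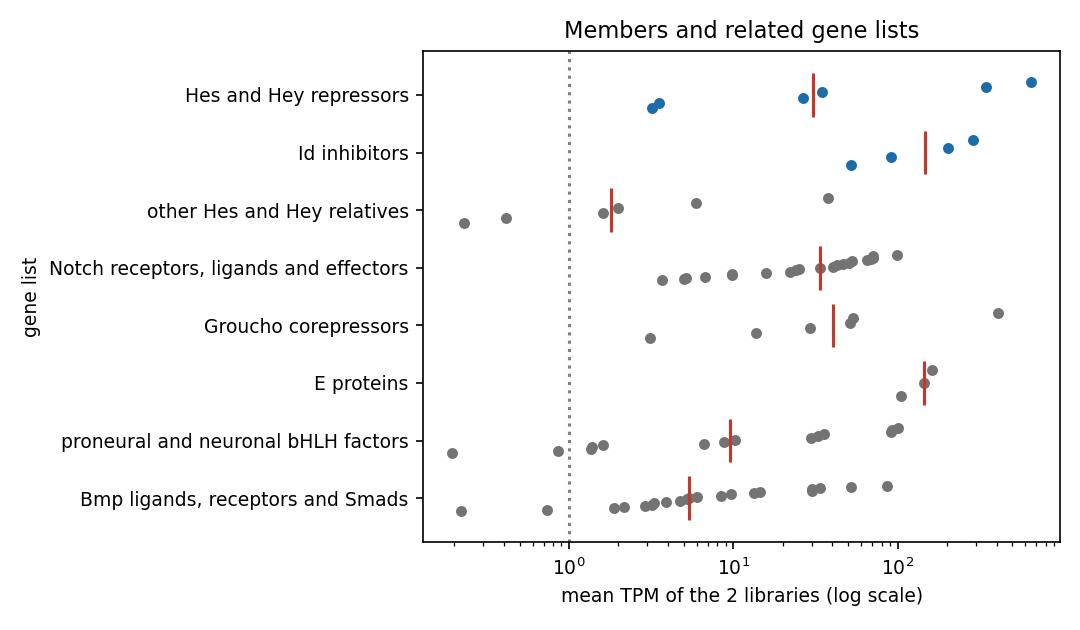
Mean TPM over the libraries, on a log axis, for each gene of the member and pathway lists, with blue points for members, grey points for other genes, a red line at each list's median and a dotted line at 1 TPM. Hes5 and Hes6 lie to the right of every Notch gene, whose highest is Mfng at 98.9. Under annotation M21, shown here, the Id median of 147 lies close to the E protein median of 146. Under M4 Id4 stood higher, at 162 TPM.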

How the data were processed

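The authors deposited, tables of genes and of transcripts for each library, made once with GENCODE M21 and once with M4 on mm10, as the manifests beside them state. Per the file headers, the deposited expected counts are estimated reads, not scaled. Deposited TPM is scaled over all rows, spike-ins included, and each transcript carries the percent of its gene's TPM. The interval bounds around TPM, per the file headers, were treated as scores and only described. Aligner, quantifier and strand setting are not given in the sources used here.

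M21 gene TPM was the main level, named by gene_id from GENCODE M21, which matched all 55536 genes. Rows naming no gene (4.02% and 3.38% of counts) stayed out of library sizes. Expected counts were rounded, scaled by TMM (edgeR 4.0.16, R 4.3.3) and given exact conditional binomial (Clopper-Pearson) 95% intervals. Genes needed 10 counts in a library. "Different" meant 2-fold with an interval excluding equality. DESeq2 1.42.0 size factors, total counts, ERCC totals and M4 were alternatives. The procedure was run on simulated counts with known changes that held counting error only, so differences between pools were not covered. It called 52% of 50 true 2-fold changes, 100% of 50 true 3-fold changes and 0.755% of 19595 unchanged genes. The replicates are separate pools per the labels, and intervals cover counting error only, without molecular identifiers.

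Members and lists were chosen with earlier results of these data known. Named besides the members were each list's highest and lowest genes, those under 1 TPM, those different, the 3 genes nearest the highest member, and further list genes chosen after their values were seen. Promoter windows came from RefSeq (GRCm38.p6) and coding ends from GENCODE M21 transcripts, in place of the planned comparison of proteins, which were not analysed here.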

Additional observations from a re-analysis of the deposited data

How the results depend on the processing

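Detection of all 10 members, the absence of a 2-fold difference among them and the 7 neighbouring pairs with separate libraries held under every alternative run for each, except that a limit of 5 TPM left 8 detected. The Id over Hes and Hey difference in median level (2.18 on the log2 scale) was 2.53 with M4, in which the Id4 level is higher, and 1.82 with means of the lists in place of medians, for which the cause was not tested. Scaling to ERCC totals left 9 members beyond counting error, none higher in replicate 1, and turned the log2 ratio of Id2 from 0.14 to -0.13. Every other scaling, minimum count and annotation run gave 7. Over all genes under TMM scaling, the 841 that differed 2-fold became 208 with a minimum of 50 counts and 1429 at a 1.5-fold limit. No member was among them. With ERCC totals Hey1, Hey2 and Hes3 had log2 ratios of -0.71, -0.60 and -0.59, each more than 1.5-fold, so their absence at that limit holds for TMM scaling only. TPM rescaled without the rows that name no gene raised Hes5 from 647 to 709 and Id4 from 91.4 to 100.3. Depth limits Hes3 and Hey2, whose intervals are the widest of the members. No paired analysis was possible because the series has 1 group.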
